A study of Mus musculus with 8 samples.

Results

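Transcripts of 10 circadian clock genes, *Arntl*, *Clock*, *Npas2*, *Per1*, *Per2*, *Per3*, *Nr1d1*, *Nr1d2*, *Dbp* and *Ciart*, were measured in mouse endometrium. They were chosen by name as the core of the clock and its nearest outputs, and are 10 of the 52325 genes in the count table. All 10 passed the filter on low counts. The endometrium of 4 wild-type (WT) and 4 *Thra1* PV/+ female mice, all in metestrus, had been cut out of frozen uterus by laser capture. *Thra1* PV/+ mice carry 1 *Thra* allele with the PV mutation, which makes thyroid hormone receptor alpha 1 a dominant negative receptor, in every tissue that expresses *Thra*. The libraries are named WT 1 to WT 4 and Mut 1 to Mut 4 here. Strain, age and the time of day at which these mice were killed are not given in the sources used here. Each library is 1 mouse by the study's legend, and the labels themselves state only uterus and genotype.

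The clock is a feedback loop that runs in nearly every cell over the course of a day. ARNTL (BMAL1) pairs with CLOCK or NPAS2 and binds E-boxes in the promoters of the *Per* and *Cry* genes, of *Nr1d1* and *Nr1d2*, and of *Dbp* and *Ciart*. PER, CRY and CIART proteins then block that pair, while the nuclear receptors NR1D1 and NR1D2 (REV-ERB alpha and beta) repress *Arntl* and *Npas2* from ROR elements. *Arntl* and *Npas2* therefore peak at the opposite time of day from *Nr1d1*, *Dbp* and *Ciart*, and the transcript levels of a tissue depend on the hour at which it is taken. *Arntl* is known to be needed for normal fertility of female mice.

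*Nr1d1* (ENSMUSG00000020889.11) lies on the minus strand of chromosome 11 at chr11:98767932-98775333 (GRCm38, GENCODE M21), tail to tail with *Thra* on the plus strand at chr11:98740638-98769006. The last exons of both genes cross. They share 263 exonic bases, which is 8.55% of the exonic bases of *Nr1d1* and 5.70% of those of *Thra*, and 197 of them are coding in both genes. That stretch, chr11:98768223-98768419, is shown from the GENCODE M21 transcripts in the sense of *Thra*, because a read from it can belong to either gene unless strand is used. It holds no marked motif and stands in lower case. The nearest *Thra* exon outside the crossing ends at -3046 bases from the first shared exonic base. Which form of the receptor the shared bases encode, and whether that form carries the PV mutation, was not examined here.
Thra and Nr1d1 shared coding stretch: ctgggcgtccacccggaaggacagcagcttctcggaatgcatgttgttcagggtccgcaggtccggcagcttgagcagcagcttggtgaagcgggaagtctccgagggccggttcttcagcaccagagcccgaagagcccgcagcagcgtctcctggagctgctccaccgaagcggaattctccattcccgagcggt
*Dbp* (ENSMUSG00000059824.12; chr7:45705088-45710203, plus strand) has a like arrangement with *Sphk2*, a sphingosine kinase gene on the minus strand. *Dbp* and *Sphk2* share 539 exonic bases, 18.0% of those of *Dbp*. The library kit marks strand, but the strand setting of the counting is not given in the sources used here, so a part of the *Nr1d1* and *Dbp* counts may come from the other gene.

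Elements through which clock proteins act were looked for on both strands of the RefSeq promoters (GRCm38.p6, 250 bases before to 50 bases after a start), of which the table used here holds entries for 9 of the 10 genes. The promoter of *Per2* was not analysed here. *Arntl* and *Per1* have 2 entries each, *Clock* has 3 and the rest have 1 each. The E-box CACGTG was in the promoter of *Ciart* and in 1 of the 2 entries of *Per1*, and in 7.15% of all 32851 promoters. The D-box TTANGTAA, bound by DBP, was in that of *Per3*, and in 2.32% of all promoters. The ROR element TAGGTCA, the site of NR1D1, was in 1 of the 2 entries of *Arntl*, and in 2.61% of all promoters. None of the other motifs searched was in any promoter entry of these 9 genes. They were the ROR element TGGGTCA (3.98% of all promoters), the cAMP response element TGACGTCA (1.79%) and the thyroid hormone response element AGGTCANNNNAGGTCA (0.0152%). The stretches around the matches are shown because they link these genes to each other, with the matches in capitals. A match describes letters only. No E-box match was found in the entries of *Nr1d1*, *Nr1d2*, *Dbp* or *Per3*, and bases farther from a start were not searched.
Ciart, 3 E-boxes, chr3:95882255-95882356, minus strand: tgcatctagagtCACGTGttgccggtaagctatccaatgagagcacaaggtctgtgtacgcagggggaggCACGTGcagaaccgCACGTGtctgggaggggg
Per3, 2 D-boxes, chr4:151044804-151044882, minus strand: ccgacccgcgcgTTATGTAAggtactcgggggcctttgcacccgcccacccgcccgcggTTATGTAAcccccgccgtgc
Per1, 1 E-box, chr11:69098756-69098815, plus strand: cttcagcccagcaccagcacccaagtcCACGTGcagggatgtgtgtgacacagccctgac
Arntl, 1 ROR element, chr7:113207532-113207556, plus strand: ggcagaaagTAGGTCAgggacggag
The E-boxes of *Ciart* lie 116, 58 and 44 bases before its start, and the D-boxes of *Per3* 205 and 158 bases before. The E-box of *Per1* lies 166 bases before a RefSeq start that is inside the longer gene model of GENCODE, and the E-box lies inside that model too. The ROR element of *Arntl* lies 31 bases after the start, in its first exon.

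Library totals ranged from 48791602 to 59818887 counts, and each clock gene had at least 28 counts in every library, the lowest being *Ciart* in WT 3. Over all 18174 genes tested, edgeR's quasi-likelihood test called 180, a call being at least a 2-fold difference with a Benjamini-Hochberg adjusted p of at most 0.1. Marker transcripts of several cell types were unequal between libraries. The summed CPM (counts scaled to library size, after TMM normalization) of 7 endometrial stroma markers was 4702 and 4856 in WT 1 and WT 2 and 5043 in Mut 1, against 403 to 1664 in the other 5 libraries. The 5 smooth muscle markers summed to 11926 in WT 1 and to 124 to 1038 elsewhere. The 7 squamous markers summed to 2232 to 3733 in mutant and 1.16 to 42.3 in WT endometrium, and 6 of them were called. Simple epithelium markers summed to 1709 and 2264 in WT 1 and WT 2 and 1653 in Mut 1, against 3018 to 4660 in the other 5 libraries. The ranges by genotype were 1653 to 4154 in mutant and 1709 to 4660 in WT libraries. Of the 4 gland markers, 2 were at or near 0. *Ltf*, another of them, measured 2853 and 1290 CPM in WT 1 and WT 2 and 4534 in Mut 1, against 8482 to 16021 in the other 5. Leukocyte markers reached 97.7 to 630 and 39.7 to 133, endothelial markers 36.4 to 160 and 50.3 to 131, blood markers 14.6 to 29.3 and 17.1 to 179, and ciliated oviduct markers 2.27 to 3.98 and 13.7 to 23.8, in mutant and WT libraries in turn. In such bulk samples, fewer cells of a type and less RNA per cell cannot be told apart.

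*Thra*, the gene that carries the mutation, was checked first. It measured 127, 45.8, 67.8 and 80.0 CPM in Mut 1 to Mut 4 and 110, 104, 50.3 and 47.4 CPM in WT 1 to WT 4. The gene's count does not tell the mutant allele from the normal one, so it does not check the labels. Its log2 fold change was 0.04 (SE 0.39, edgeR adjusted p = 0.987). The 3 highest libraries were Mut 1, WT 1 and WT 2, the 3 with most stromal transcripts, and the genotypes overlapped.

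None of the 10 clock genes was called between *Thra1* PV/+ and WT endometrium, where 0.99% of all tested genes were. Before adjustment, edgeR put 0 of the 10 under 0.05, against 9.77% of all tested genes, and DESeq2 put 1, *Ciart* (DESeq2 adjusted p = 0.362). The share over all genes was not taken with DESeq2. For none of the 10 did the genotypes separate without overlap, as they did for 6.04% of all tested genes. By log2 fold change, 5 lay above 0 and 5 below, with a median of -0.05 beside -0.05 over all tested genes. The largest differences were those of *Ciart*, 2.10 times as high in mutant endometrium, and *Dbp*, 2.07 times as high in WT endometrium, and neither passed the test. The 95% intervals reached past a 2-fold difference (a log2 of 1) in at least 1 direction for *Npas2*, *Per1*, *Nr1d1*, *Dbp* and *Ciart*, so for these 5 a 2-fold difference lies within the interval. A miss of the threshold does not show that the genotypes had equal levels.

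**Figure D1:**
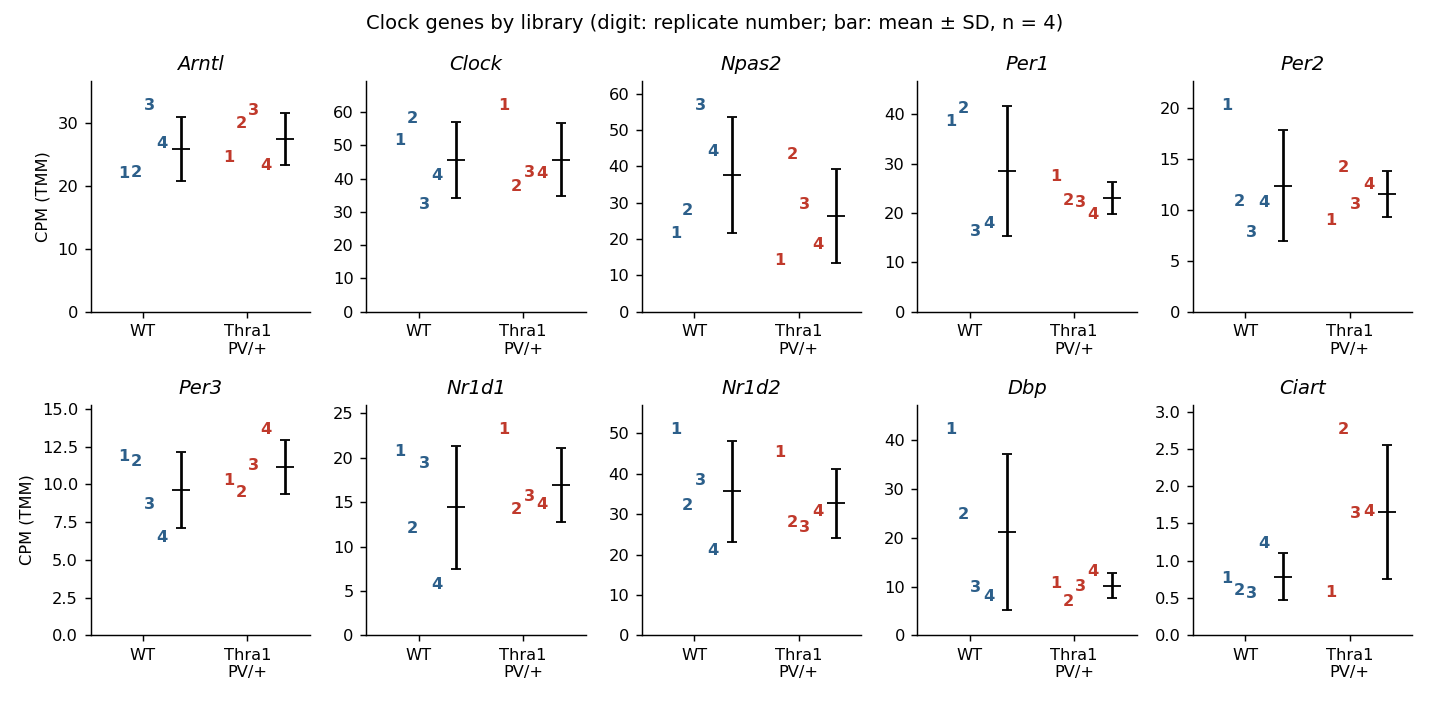
Each panel plots 1 clock gene in CPM (vertical axis from 0) by genotype, with the digit giving the replicate number and the bar the mean ± SD of 4 libraries. The genotypes overlap in every panel, and the WT spread is wide for *Dbp*, from 7.97 to 42.1 CPM, and *Nr1d1*, from 5.71 to 20.6 CPM.

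Among the activators, *Arntl*, which encodes the partner that the loop cannot do without, varied least. It measured 24.5, 29.9, 31.9 and 23.2 CPM in Mut 1 to Mut 4 and 21.9, 22.1, 32.7 and 26.7 CPM in WT 1 to WT 4. Its log2 fold change was 0.08 (SE 0.18, 95% interval -0.33 to 0.49, adjusted p = 0.930), and the exact permutation test gave p = 0.629. The highest and lowest libraries, WT 3 and WT 1, were both WT, and they differed by 1.49 times. *Clock*, which encodes the usual partner of ARNTL, measured 61.9, 37.7, 41.8 and 41.4 CPM in Mut 1 to Mut 4 and 51.4, 58.0, 32.2 and 41.1 CPM in WT 1 to WT 4. Its means were nearly equal, 45.7 ± 10.96 and 45.7 ± 11.4 CPM (SD, n = 4), with a log2 fold change of 0.00 (SE 0.23, interval -0.52 to 0.52, adjusted p = 0.999). Mut 1, WT 1 and WT 2 were its 3 highest libraries. *Npas2*, which encodes a second partner and is a target of the NR1D proteins, measured 14.2, 43.3, 29.4 and 18.4 CPM in Mut 1 to Mut 4 and 21.6, 27.8, 56.7 and 44.2 CPM in WT 1 to WT 4. The range was 3.99-fold, with WT 3 highest and Mut 1 lowest. The log2 fold change was -0.51 (SE 0.41, interval -1.46 to 0.44, adjusted p = 0.755, exact permutation p = 0.314). With stromal transcripts as a covariate, chosen after the data were seen, *Npas2* became a called gene (log2 fold change -1.23, SE 0.19, adjusted p = 0.0348), while without the 3 libraries highest in stroma it was not (-0.69, adjusted p = 0.539).

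The period genes encode the proteins that close the loop, and *Per1* also answers glucocorticoids and other acute signals. *Per1* measured 27.5, 22.5, 22.1 and 19.7 CPM in Mut 1 to Mut 4 and 38.6, 41.2, 16.3 and 17.9 CPM in WT 1 to WT 4. WT libraries thus fell into a high and a low pair, with the 4 mutant libraries between them. The log2 fold change was -0.31 (SE 0.33, interval -1.06 to 0.43, adjusted p = 0.825), and it was 0.37 (adjusted p = 0.479) without Mut 1, WT 1 and WT 2, the libraries highest in both *Per1* and stroma. *Per2* measured 8.98, 14.2, 10.5 and 12.5 CPM in Mut 1 to Mut 4 and 20.2, 10.8, 7.74 and 10.7 CPM in WT 1 to WT 4. WT 1, the library highest in smooth muscle and blood markers, stood above the other 7. Without WT 1 the log2 fold change of *Per2* went from -0.10 (SE 0.31, adjusted p = 0.955) to 0.29. *Per3*, the period gene that the loop can spare, measured 10.3, 9.50, 11.2 and 13.6 CPM in Mut 1 to Mut 4 and 11.8, 11.5, 8.67 and 6.47 CPM in WT 1 to WT 4. Its log2 fold change was 0.21 (SE 0.24, interval -0.35 to 0.77, adjusted p = 0.841). *Ciart* (CHRONO), a repressor of the ARNTL pair, was the lowest of the 10, with 0.569, 2.76, 1.63 and 1.66 CPM in Mut 1 to Mut 4 and 0.763, 0.596, 0.557 and 1.23 CPM in WT 1 to WT 4. Mut 2, Mut 3 and Mut 4 lay above the 4 WT libraries and Mut 1 lay among them. The log2 fold change was 1.07 (SE 0.51, interval -0.10 to 2.24, adjusted p = 0.563, exact permutation p = 0.143). It was 0.71 without Mut 2 and 0.21 with stromal transcripts as a covariate.

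*Nr1d1*, the repressor gene that overlaps *Thra*, measured 23.2, 14.2, 15.6 and 14.8 CPM in Mut 1 to Mut 4 and 20.6, 12.1, 19.3 and 5.71 CPM in WT 1 to WT 4. The range was 4.06-fold, with the lowest value in WT 4, and mutant libraries except Mut 1 lay within WT values. Its log2 fold change was 0.23 (SE 0.39, interval -0.65 to 1.11, adjusted p = 0.900, exact permutation p = 0.571). Without WT 4 the log2 fold change was -0.03. *Nr1d2*, its paralog, with an overlapping role, measured 45.3, 28.0, 26.8 and 30.8 CPM in Mut 1 to Mut 4 and 51.0, 32.2, 38.5 and 20.95 CPM in WT 1 to WT 4. Its log2 fold change was -0.12 (SE 0.29, interval -0.78 to 0.53, adjusted p = 0.935), and it was 0.14 without WT 1. Both receptors were highest in Mut 1, WT 1 and WT 3 and lowest in WT 4.

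The ratio of *Nr1d1* to *Thra* in CPM was 0.183, 0.310, 0.230 and 0.185 in Mut 1 to Mut 4 and 0.188, 0.116, 0.384 and 0.1205 in WT 1 to WT 4. It was highest in WT 3 and lowest in WT 2, so both ends lay in WT libraries. Over the 8 libraries, log2 CPM of *Thra* and *Nr1d1* had r = 0.52 (exact permutation p = 0.184, adjusted p = 0.368 over 2 relations) and rho = 0.62 (p = 0.115, adjusted p = 0.230). Without Mut 1 and Mut 2, the libraries farthest from the median of *Thra*, r was 0.45. For *Sphk2* and *Dbp*, r was -0.07 (exact permutation p = 0.874, adjusted p = 0.874), rho was -0.24 (p = 0.582, adjusted p = 0.582), and r was 0.08 without Mut 1 and Mut 2. Neither relation passed its test, and how many reads of the shared exons were given to the wrong gene was not tested. *Sphk2* itself ranged from 34.7 to 50.9 CPM, with a log2 fold change of -0.01 (SE 0.15, adjusted p = 0.992).

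**Figure D2:**
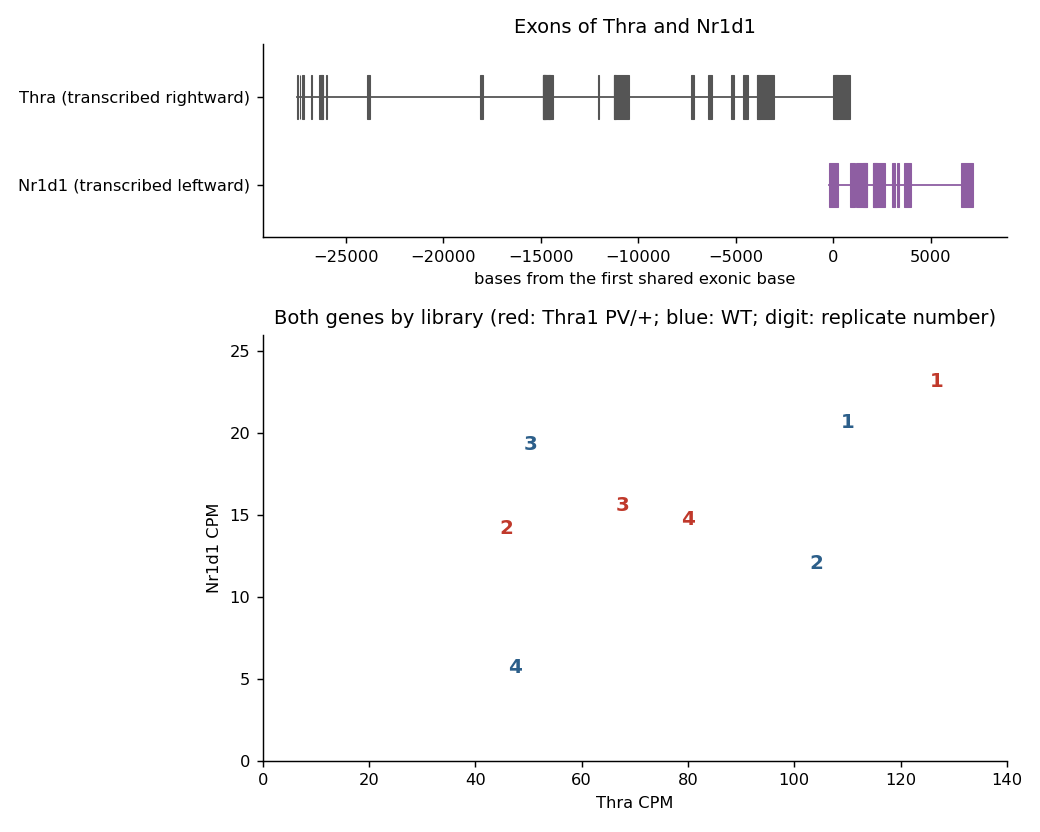
The upper panel maps the exons of *Thra* and *Nr1d1* in bases from their first shared exonic base, and the lower panel plots CPM of *Nr1d1* (vertical axis) against CPM of *Thra* (horizontal axis) for each library, labelled by replicate number and coloured by genotype. The gene models cross only at their last exons, and WT 4 and WT 3 have nearly the same *Thra* level, 47.4 and 50.3 CPM, but 5.71 and 19.3 CPM of *Nr1d1*.

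*Dbp*, the output factor whose transcript swings widely over the day in many tissues, also varied most here. It measured 10.6, 6.92, 10.1 and 13.1 CPM in Mut 1 to Mut 4 and 42.1, 24.7, 9.71 and 7.97 CPM in WT 1 to WT 4. WT 1 and WT 2 stood above all other libraries, and WT 3 and WT 4 lay within mutant values. The log2 fold change was -1.05 (SE 0.52, interval -2.25 to 0.14, adjusted p = 0.574, exact permutation p = 0.314). It was -0.42 without WT 1, -0.11 with stromal transcripts as a covariate and 0.22 without Mut 1, WT 1 and WT 2.

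**Figure D3:**
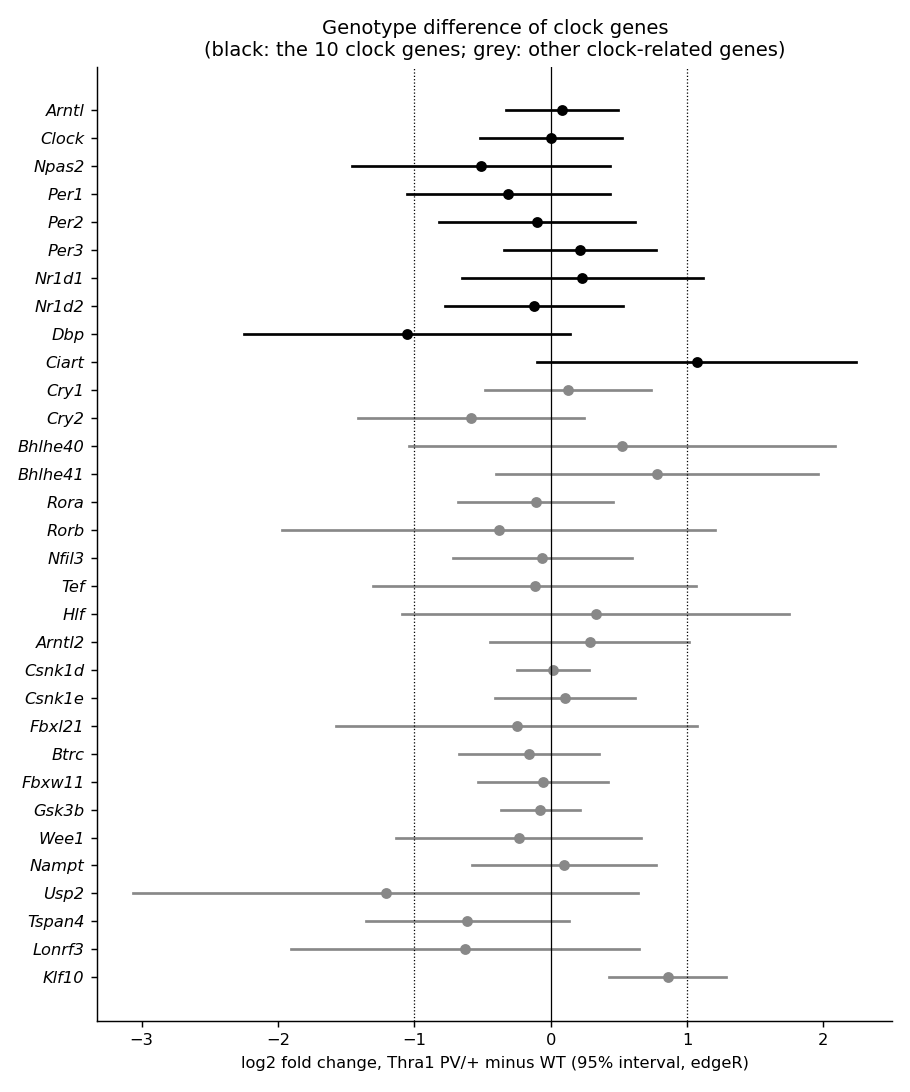
Points give the log2 fold change (horizontal axis, *Thra1* PV/+ minus WT) from edgeR and lines its 95% interval for the 10 clock genes (black) and 22 of the 24 other clock-related genes (grey), with dotted lines at a 2-fold difference. Each black interval covers 0, with *Dbp* at -1.05 and *Ciart* at 1.07 at the ends, and *Klf10* is the one grey gene whose interval stays above 0.

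The 24 other clock-related genes gave 0 calls, also by DESeq2, and 1 gene at an unadjusted p under 0.05 by edgeR, beside 9.77% of all tested genes. Of the 4 other repressors, *Cry1* (log2 fold change 0.13) and *Cry2* (-0.59) encode the partners of the PER proteins, and *Bhlhe40* (0.52) and *Bhlhe41* (0.78) encode repressors at E-boxes. Of the 6 factors acting at ROR elements and D-boxes, 2 lay above 0 and 4 below, among them *Rorb* (-0.38), *Hlf* (0.33) and *Rora* (-0.11). *Arntl2*, the paralog of *Arntl*, was at 0.29. Of 7 genes of clock protein turnover, 2 lay above 0 and 5 below, with *Btrc* at -0.16, *Gsk3b* at -0.08 and *Csnk1e* at 0.10. Among 6 clock output genes, *Klf10*, which encodes a zinc finger factor, was the gene with p under 0.05. It measured 55.1, 74.2, 64.5 and 41.3 CPM in Mut 1 to Mut 4 and 31.3, 28.5, 34.1 and 35.8 CPM in WT 1 to WT 4, with no overlap. Its log2 fold change of 0.86 (SE 0.19, exact permutation p = 0.0286, the smallest that 4 against 4 can give) missed the threshold for a call at an adjusted p of 0.127. The other 5 were *Usp2* (-1.21), *Tspan4* (-0.61), *Lonrf3* (-0.63), *Wee1* (-0.23) and *Nampt* (0.10), with adjusted p of 0.606 or more.

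Because *Per1* also answers acute signals, other genes known to respond to such signals were read beside it. All 6 glucocorticoid-responsive genes had a log2 fold change below 0 (median -1.11, beside -0.05 over all tested genes). So did all 7 endometrial stroma markers (median -0.89). By edgeR, 3 of the 6 had an unadjusted p under 0.05, as 9.77% of all tested genes had, with 0 calls. They were *Klf9* at -2.02 (adjusted p = 0.351), *Zbtb16* at -3.18 (adjusted p = 0.447) and *Tsc22d3* at -1.32 (adjusted p = 0.505). *Fkbp5* was at -0.91 (adjusted p = 0.635). *Zbtb16*, *Tsc22d3* and *Fkbp5* were highest in Mut 1, WT 1 and WT 2, as *Per1* was, while *Klf9*, *Sgk1* and *Errfi1* were not. Those 3 libraries held most stromal transcripts and were the 3 highest for 13.7% of all tested genes. Of 8 immediate-early genes, 5 lay above 0 and 3 below with 0 at p under 0.05, and *Junb* (0.76), *Ier2* (0.25), *Dusp1* (0.71) and *Fosb* (-0.73) had the smallest p. Around *Thra*, *Med24* (-0.67), *Casc3* (0.07), *Wipf2* (0.12) and *Msl1* (0.005) had adjusted p of 0.666 or more. Of the 4 thyroid hormone receptor and target genes, *Klf9*, also a known target of the receptor, and *Thrb*, the second receptor gene (-0.99, adjusted p = 0.413), were lower at an unadjusted p under 0.05 and 0 were called. In either direction, 9.77% of all tested genes were under that p. *Hr* was at 0.69 (adjusted p = 0.582), and *Thra* is given above.

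Because *Arntl* and *Dbp* peak at opposite times of day, an index of opposed clock genes was read by library beside genotype. As a clock index, the mean log2 CPM of *Nr1d1*, *Dbp*, *Ciart* and *Per3* was subtracted from that of *Arntl* and *Npas2*. The subtracted genes did not all run together over the 8 libraries, so the index is not a plain measure of phase. For *Ciart*, r was -0.48 with *Dbp* and -0.33 with *Nr1d1*. It was 0.30 for *Nr1d1* and *Dbp*, 0.61 for *Nr1d1* and *Per3* and 0.55 for *Dbp* and *Per3*. The index was 1.58, 2.33, 2.05 and 1.34 in Mut 1 to Mut 4 and 1.19, 1.86, 2.95 and 2.96 in WT 1 to WT 4. The lowest library and both of the highest were WT, so mutant libraries lay inside the WT range. The WT range was 1.77 and the mutant range 0.991 on this log2 scale, while the genotype means, 1.82 ± 0.45 in mutant and 2.24 ± 0.87 in WT endometrium (SD, n = 4), differed by -0.42. A second index from genes outside the 10, *Nfil3* and *Cry1* minus *Tef*, *Hlf* and *Usp2*, was -0.33, 2.41, 1.85 and 0.79 in Mut 1 to Mut 4 and -0.04, -0.25, 2.84 and 2.01 in WT 1 to WT 4. It was highest in WT 3, with a mean of 1.18 ± 1.21 in mutant and 1.14 ± 1.52 in WT endometrium. The simple difference of *Arntl* and *Dbp* was 1.20, 2.10, 1.66 and 0.82 in Mut 1 to Mut 4 and -0.94, -0.16, 1.75 and 1.74 in WT 1 to WT 4, with WT 1 and WT 2 the only libraries below 0. These indices carry no test, and the hour of collection, the share of each cell type and the phase of the clock cannot be told apart from them.

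**Figure D4:**
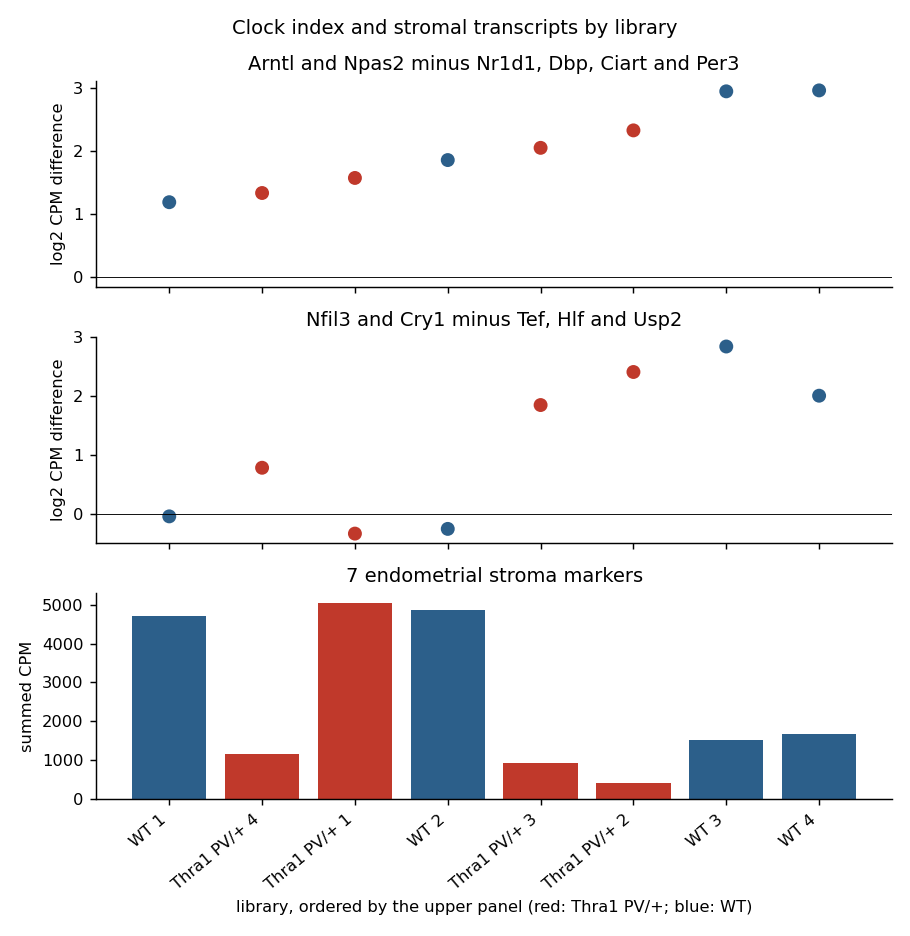
The upper panels plot both clock indices (log2 CPM differences) for the 8 libraries in the order of the first, in red for *Thra1* PV/+ and blue for WT, and the bars give the summed CPM of 7 stroma markers. WT libraries hold both ends of the first index, 1.19 and 2.96, and the 3 libraries with 4702 to 5043 CPM of stroma markers have the 3 lowest values of the second index.

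Over the 8 libraries, *Arntl* was compared with each of the other 9 clock genes in log2 CPM, and no relation passed 0.05 after Benjamini-Hochberg adjustment over the 9. With *Dbp*, r was -0.74 (exact permutation p = 0.0281, adjusted p = 0.152) and rho -0.81 (p = 0.0218, adjusted p = 0.144). Without Mut 3 and WT 3, the libraries farthest from the median of *Arntl*, r with *Dbp* was -0.87, and with the genotype means removed it was -0.74. With *Clock*, r was -0.75 (exact permutation p = 0.0352, adjusted p = 0.152), rho -0.67 (p = 0.0831, adjusted p = 0.144), and r was -0.65 without Mut 3 and WT 3 and -0.77 with genotype means removed. With *Per1*, r was -0.72 (exact permutation p = 0.0524, adjusted p = 0.152), rho -0.71 (p = 0.0576, adjusted p = 0.144), and r was -0.66 and -0.70 in those versions. With *Npas2*, which stands beside *Arntl* in the first clock index, r was 0.69 (exact permutation p = 0.0677, adjusted p = 0.152), rho 0.69 (p = 0.0694, adjusted p = 0.144), and r was 0.64 and 0.87. For *Nr1d1*, the direct repressor of *Arntl*, r was -0.02 (exact permutation p = 0.973). The remaining r were -0.49 for *Per2*, -0.45 for *Per3*, -0.37 for *Nr1d2* and 0.31 for *Ciart*. All 9 share the same 8 libraries and their unequal stroma, and too few libraries lie on either side of that gap to repeat them within it.

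The 3 libraries highest in stromal transcripts, Mut 1, WT 1 and WT 2, were also the 3 highest for 2 of the 10 clock genes, *Clock* and *Per1*, and for 13.7% of all tested genes (2481). They were the 3 highest for *Tef*, *Usp2*, *Cry2*, *Rorb*, *Wee1* and *Btrc* as well. *Arntl* did the opposite in WT endometrium, where WT 1 and WT 2 held its 2 lowest values. The same 3 libraries had the lowest sums of simple epithelium markers. WT 1, the highest library for *Per2*, *Nr1d2* and *Dbp*, was also the highest in smooth muscle and blood markers. The part of stroma in these differences was not tested beyond the covariate and the fit without the 3 libraries. That of simple epithelium, smooth muscle and blood was not tested.

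**Figure D5:**
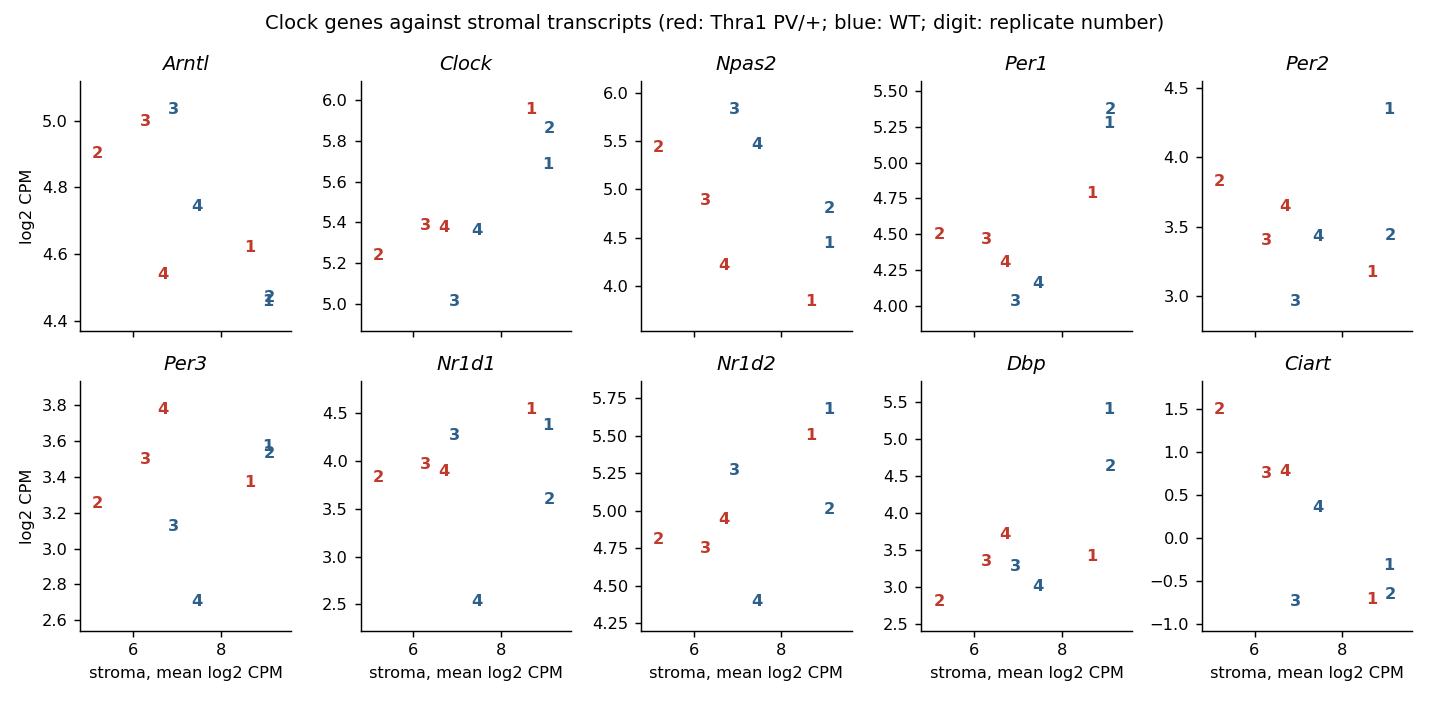
Each panel plots log2 CPM of 1 clock gene (vertical axis, scaled to each gene) against the mean log2 CPM of 7 endometrial stroma markers (horizontal axis), with libraries given by replicate number and coloured by genotype. Mut 1, WT 1 and WT 2 lie at 8.67 to 9.10 on the stroma axis and the other 5 libraries at 5.20 to 7.45, and *Clock* and *Per1* are highest in those 3.

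The pooled SD of log2 CPM within a genotype ranked these genes by how much mice of 1 genotype differed. It was 0.84 for *Dbp*, above 77.5% of tested genes, 0.74 for *Ciart* (72.0%), 0.67 for *Npas2* (67.7%) and 0.64 for *Nr1d1* (65.9%). It was 0.52 for *Per1*, 0.46 for *Per2*, 0.45 for *Nr1d2*, 0.35 for *Clock*, 0.33 for *Per3* and 0.25 for *Arntl*, which lay above 25.9% of tested genes. The spread of the 10 was thus not uniformly wide for this tissue.

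Levels between genes were compared in TPM, which is per length, from the deposited and already normalized table. In WT endometrium the order was *Dbp* (21.7 ± 17.1 TPM, SD, n = 4), *Npas2* (13.5 ± 5.52), *Arntl* (11.2 ± 1.94), *Nr1d2* (10.99 ± 3.27), *Per1* (8.13 ± 3.62), *Nr1d1* (7.47 ± 3.55), *Clock* (6.19 ± 1.25), *Per3* (3.13 ± 0.639), *Per2* (2.60 ± 0.946) and *Ciart* (0.911 ± 0.531). Libraries of neighbouring genes overlapped except between *Clock* and *Per3* and between *Per2* and *Ciart*. In mutant endometrium the order was *Arntl* (12.04 ± 2.01 TPM), *Nr1d2* (11.1 ± 3.27), *Npas2* (9.39 ± 4.52), *Dbp* (9.01 ± 2.42), *Nr1d1* (8.46 ± 1.57), *Clock* (6.52 ± 1.68), *Per1* (6.02 ± 0.506), *Per3* (3.28 ± 0.690), *Per2* (2.33 ± 0.682) and *Ciart* (1.58 ± 0.922). Here only *Per1* and *Per3* were neighbours without overlap. *Per3*, *Per2* and *Ciart* were the 3 lowest in both genotypes.

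The genes whose log2 CPM ran most like *Arntl*, *Dbp* and *Nr1d1* over the 8 libraries were taken, as a description, from the 12131 genes whose mean log2 CPM reached 2. For *Arntl* they were *Cs* (r = 0.99), which encodes citrate synthase, *Ostc* (0.98), *Mief1* (0.98), *Agrn* (0.97) and *Mid2* (0.97). For *Dbp* they were *Zdhhc1* (0.98), *Kif1bp* (0.98), *Tatdn3* (0.97), *Cers4* (0.97) and *Tfcp2* (0.97). *Per1* (r = 0.82) ranked 553 for *Dbp*, and *Usp2* (0.79) and *Tef* (0.79) ranked 728 and 768. For *Nr1d1* they were *Pias3* (0.96), *Kank1* (0.95), *Boc* (0.90), *Zfp385a* (0.89) and *Trerf1* (0.88). Its paralog *Nr1d2* ranked 10 (r = 0.85), *Per3* ranked 220 (0.61) and *Thra* ranked 484 (0.52). No test goes with these ranks.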

How the data were processed

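RNA was measured by paired-end stranded mRNA sequencing of 8 libraries. The authors trimmed reads with Trimmomatic, ran salmon against mm10 and deposited its estimated counts per gene, not normalized. The authors also deposited TPM values, whose sorted values differed by at most 0.291 between libraries at any rank, the form that quantile normalization gives. The salmon version, annotation release and strand setting are not given in the sources used here. A further 1 column of sample values beside the TPM was not used.

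Estimated counts were rounded to whole numbers. Genes passing filterByExpr (minimum count 10, minimum total 15), 18174 of 52325, were scaled by TMM and compared by the quasi-likelihood test of edgeR 4.0.16 (R 4.3.3), with genotype as the only term and Benjamini-Hochberg adjustment over all tested genes. A call needed at least a 2-fold difference with an adjusted p of at most 0.1, the study's thresholds, and intervals are at 95%. The authors used DESeq2, and DESeq2 1.42.0 and limma 3.58.1 were alternatives. Log2 CPM used a prior count of 2. Single values and correlations were compared by two-sided exact permutation tests, over 70 arrangements of 4 against 4 and over 40320 pairings. Identifiers without a symbol held at most 0.00897% of a library's counts. Each count test was first tested on simulated counts. Library totals of at least 48791602 counts make the counting error from sequencing depth small for these genes other than Ciart. The number of distinct RNA molecules behind these laser-captured libraries is not given in the sources used here, so error from that was not assessed.

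The 10 clock genes and the gene lists were chosen with earlier results of these data known. Text names the 10, Thra, up to 4 genes of smallest p per list of clock-related, glucocorticoid-responsive, immediate-early, Thra-neighbour and thyroid hormone genes, and the 5 genes most like Arntl, Dbp and Nr1d1. Some genes that rule names are not reported here. Sphk2, Tef, Nfil3, Cry2, Wee1, Nampt and Btrc are also named where a sentence turns on them. The labels do not say that replicates came from separate animals, and the p-values measure only the spread between these samples.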

Additional observations from a re-analysis of the deposited data

How the results depend on the processing

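With DESeq2, other normalizations (DESeq2 size factors, upper quartile, library size), other count filters, limma voom with quality weights, limma on log2 TPM plus 1 or 0.1, a replicate block and each library left out, 0 of the 10 clock genes and 0 of the 24 other clock-related genes were called. With stromal transcripts as a covariate, 1 of the 10 was called, *Npas2*, and 0 were without the 3 libraries highest in stroma, both settings chosen after the data were seen. The count at an unadjusted p under 0.05, 0 in the reported fit, was 1 with DESeq2 (*Ciart*), 2 with the covariate (*Clock* and *Npas2*) and 0 to 2 with 1 library left out: *Ciart* without Mut 1, *Dbp* without WT 3, and both without WT 4. The share of all tested genes under that p, 9.77% in the reported fit, was not taken for the other settings. Calls over all genes, 180 in the reported fit, were 791 with DESeq2, 311 with voom, 378 with the covariate, 82 with the block, 81 with at least 10 counts in every library and 81 to 167 with 1 library left out (lowest without Mut 3). Small log2 fold changes turned sign, and so did that of *Dbp*, -1.05 in the reported fit, without the 3 libraries highest in stroma. Leaving out 1 library gave -0.00093 to 0.23 for *Arntl* (below 0 without Mut 3), -0.13 to 0.17 for *Clock* (below 0 without Mut 1, WT 3 or WT 4), -0.25 to 0.29 for *Per2* (above 0 without Mut 1 or WT 1), -0.034 to 0.50 for *Nr1d1* (below 0 without WT 4) and -0.31 to 0.14 for *Nr1d2* (above 0 without WT 1). With voom, *Clock* was at -0.068 and *Per2* at 0.012. On log2 TPM, *Nr1d2* was at 0.021 and 0.024 with pseudocounts of 1 and 0.1. With the stroma covariate, *Arntl* was at -0.12, *Per1* at 0.20 and *Nr1d2* at 0.15. Without the 3 libraries highest in stroma, *Arntl* was at -0.029, *Per1* at 0.37, *Per2* at 0.46 and *Dbp* at 0.22. The cause was not tested. Over all settings, *Npas2* ran from -1.23 to -0.22, *Per3* from 0.05 to 0.64 and *Ciart* from 0.21 to 1.40, each with 1 direction. Same-numbered libraries did not pair (correlations of deviations 0.27, -0.44, 0.34 and -0.16), and the replicate block called 0 clock genes. With 4 libraries a genotype, the intervals of *Dbp* and *Ciart* span over 2 log2 units, which limits what can be read from them.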
